A study of Mus musculus with 2 samples.

Results

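The genes of the glutathione, peroxiredoxin and thioredoxin systems were examined for their level and for their expression from either parental genome in F123 mouse embryonic stem cells (mESCs). Members were chosen by gene name alone: the glutathione S-transferases (Gst), glutathione peroxidases (Gpx), peroxiredoxins (Prdx), thioredoxins and their reductases and interactor (Txn), glutaredoxins (Glrx), the enzymes that make and recycle glutathione (Gclc, Gclm, Gss and Gsr), superoxide dismutases Sod1 and Sod2, catalase (Cat), Nqo1, Hmox1 and Hmox2. The deposited table has 1 record for each gene and transcript biotype (protein-coding or lncRNA). The rule found 101 records of 69 genes on 18 chromosomes, among 37178 records of 29833 genes.

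F123 is a male hybrid mESC line whose parents were an S129/Jae and a CAST mouse, so each autosomal gene has a CAST and an S129 copy in the same cells. Cells were kept on inactivated embryonic fibroblasts in medium with KnockOut serum replacement, LIF and beta-mercaptoethanol, a reducing agent, and were passaged without feeder cells before harvest. Total RNA of 2 replicates was sequenced, and the table holds both replicates as 1 pooled value. The 2 groups compared here are the CAST and S129 alleles of this 1 line, in which the strain of an allele and the parent that passed it on cannot be told apart.

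Cells keep their interior reduced with a pair of linked systems. Glutathione, a tripeptide made by the Gcl enzymes and glutathione synthetase, donates electrons to peroxidases and glutaredoxins and is then recycled by glutathione reductase. Transferases join glutathione to electrophiles. Thioredoxins pass electrons from NADPH, through thioredoxin reductases, to peroxiredoxins and other proteins with disulfide bonds. Superoxide dismutases turn superoxide into hydrogen peroxide, which catalase, the glutathione peroxidases and the peroxiredoxins remove. Many of these genes are known targets of Nrf2 (Nfe2l2), a transcription factor that binds antioxidant response elements and is held in check by Keap1.

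Several members act through a selenocysteine, which is encoded by TGA, a codon that otherwise stops translation. The coding sequences around the catalytic codon of the 8 glutathione peroxidases are shown because they separate the family into selenium enzymes and cysteine enzymes. Capitals mark the catalytic codon, with 4 codons on each side, in GRCm38 transcripts of GENCODE M21 (for Gpx1 from another isoform than the one in the table).
Gpx1: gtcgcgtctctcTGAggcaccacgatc
Gpx2: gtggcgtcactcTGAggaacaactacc
Gpx3: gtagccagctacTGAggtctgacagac
Gpx4: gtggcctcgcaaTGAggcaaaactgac
Gpx5: gtggctacctatTGCggtctgacaatc
Gpx6: gtggcatccttcTGTggcctgacagct
Gpx7: gtagctagcgaaTGTggcttcacagac
Gpx8: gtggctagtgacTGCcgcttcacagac
The codon was TGA in 4 of these genes (Gpx1 to Gpx4) and a cysteine codon, TGC or TGT, in the other 4 (Gpx5 to Gpx8). For example, the Gpx4 codon lies at chr10:80054737-80054739 on the plus strand and the Gpx6 codon at chr13:21313777-21313779 on the plus strand. The next sequences are shown because they hold the redox centres of the thioredoxin system. Capitals mark the active-site motif of the thioredoxins, with a cysteine codon at either end, and the last cysteine codon followed by the TGA selenocysteine codon of the reductases.
Txn1: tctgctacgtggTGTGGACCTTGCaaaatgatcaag
Txn2: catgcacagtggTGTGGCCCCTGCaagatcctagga
Txnrd1: ctccagtctggcTGCTGAggt
Txnrd2: actgtgactggtTGCTGAggc
Txnrd3: actcagaaaggcTGCTGAggc
The Txn1 motif lies at chr4:57951821-57951832 on the minus strand, and the Txnrd1 codons lie at chr10:82896034-82896039 on the plus strand. The cysteine and TGA pair was present in all 3 reductase genes.

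Across the table, 16343693 allelic reads were assigned, 50.36% of them to CAST. TPM is that over the transcript unless exons are named, and a record was called expressed at a TPM of at least 1. Where an lncRNA record overlaps the protein-coding record of its gene, reads of either can enter its TPM. The TPM of an lncRNA record is therefore not a level of noncoding RNA alone. It was called ASE (allele-specific expressed) when it was expressed, its reads differed at least 2-fold between CAST and S129, and the adjusted p of the exact binomial test against equal shares was at most 0.05 (Benjamini-Hochberg over 18632 records with allelic reads). An expressed record with allelic reads and no such call is termed biallelic. Log2 fold changes are CAST over S129 throughout, so that negative values are higher in S129, and their standard errors (SE) follow from the read counts. In parentheses after the reads of a record stand this log2 value and its SE. With both replicates pooled, all p-values and 95% exact (Clopper-Pearson) intervals cover counting error only. Protein-coding records of the 8 stem cell markers were at 14.4 to 380.8 TPM, and those of 10 fibroblast markers at 0.026 to 4.40 TPM, with 3 of them expressed and none at 0. In such a bulk sample, fewer cells of a type and less RNA per cell cannot be told apart.

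Most members were expressed. Of the 101 records, 82 (57 genes) reached 1 TPM and 19 did not, which left 12 genes with no expressed record. Over the whole table, which also holds noncoding genes, 17956 of 37178 records (13462 of 29833 genes) reached 1 TPM. The median of the expressed member records was 11.7 TPM, against 6.24 TPM for all expressed records. The 12 genes were 7 transferases, 2 thioredoxin-domain genes (Txndc2 and Txndc8, known from male germ cells), Gpx5, known from the epididymis, Prdx6b and Txnrd2, the mitochondrial reductase, at 0.566 and 0.906 TPM in its protein-coding and lncRNA records. Gpx5 and Prdx6b were listed at 0.

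**Figure D1:**
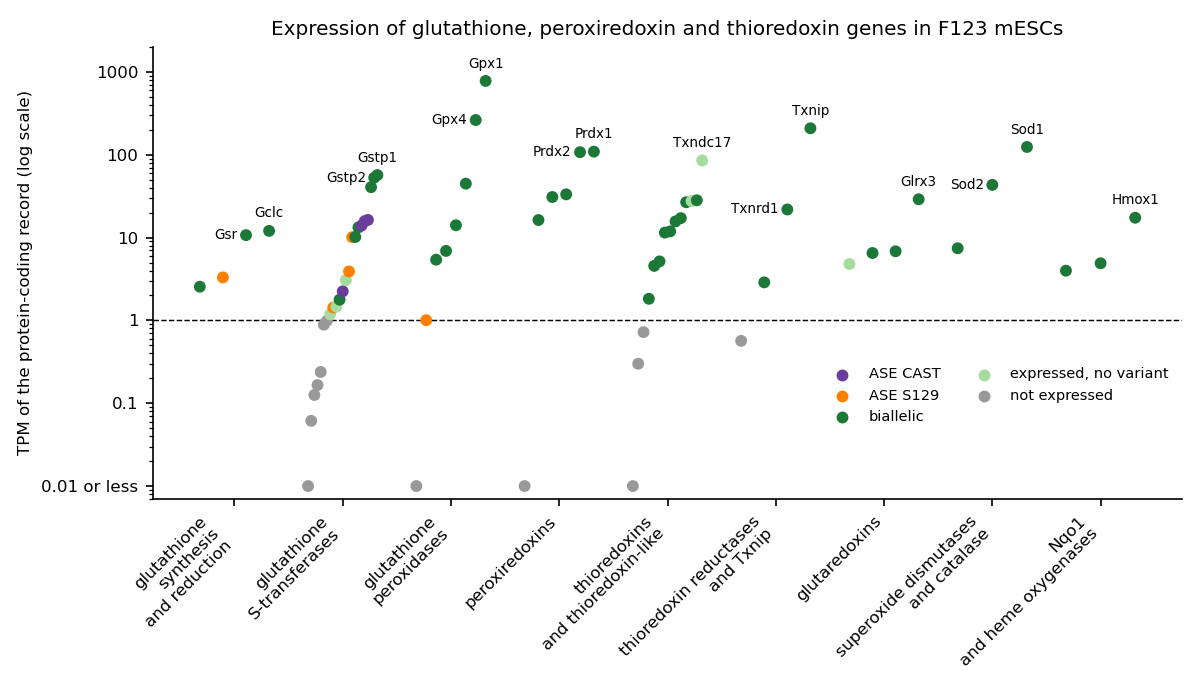
TPM of each member's protein-coding record (log scale) by role, 1 point per gene and both replicates pooled. The dashed line is 1 TPM, and the colour gives the allelic class. Gpx1 stood highest at 778.7 TPM, and 7 of the 23 transferase genes lay below the line in all their records.

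Of the 82 expressed records, 10 had no variant and 72 (50 genes) could be tested. 13 of the 72 were ASE (18.1%), 6 higher in CAST and 7 higher in S129. Among all 15935 tested records 14.1% were ASE, 8.33% higher in CAST and 5.78% higher in S129. The 13 records belong to 10 genes, 5 for each allele, because both records of Gclm, Gpx6 and Gsto1 were called on identical reads. By gene, 10 of 50 tested members were ASE, against 1980 of 12067 tested genes over the whole table. Without the fold minimum, 36 of 72 member records passed an adjusted p of 0.05, 18 in each direction, or 50.0%. Of all tested records 48.3% passed, 25.4% toward CAST and 22.9% toward S129. The median absolute log2 fold change was 0.44 in members and 0.36 in all tested records. The CAST share lay between 40 and 60% in 46 of the 72 records (63.9%), against 67.4% of all tested records. 4 of the 13 ASE records had under 50 reads, and 8 had at most 3 variants. With a beta-binomial test that allows reads of a gene to be correlated at 0.05, 0 member records and 3.06% of all tested records were ASE, and with a correlation of 0.01 12 member records and 12.1% of all tested records were. The passes without the fold minimum were fewer: at a correlation of 0.01, 14 of the 72 member records (19.4%) and 14.3% of all tested records had an adjusted p of at most 0.05. These 14 were 7 transferase records, 3 of thioredoxins and thioredoxin-like genes, 2 of glutathione peroxidases and 2 of glutathione synthesis and reduction.

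**Figure D2:**
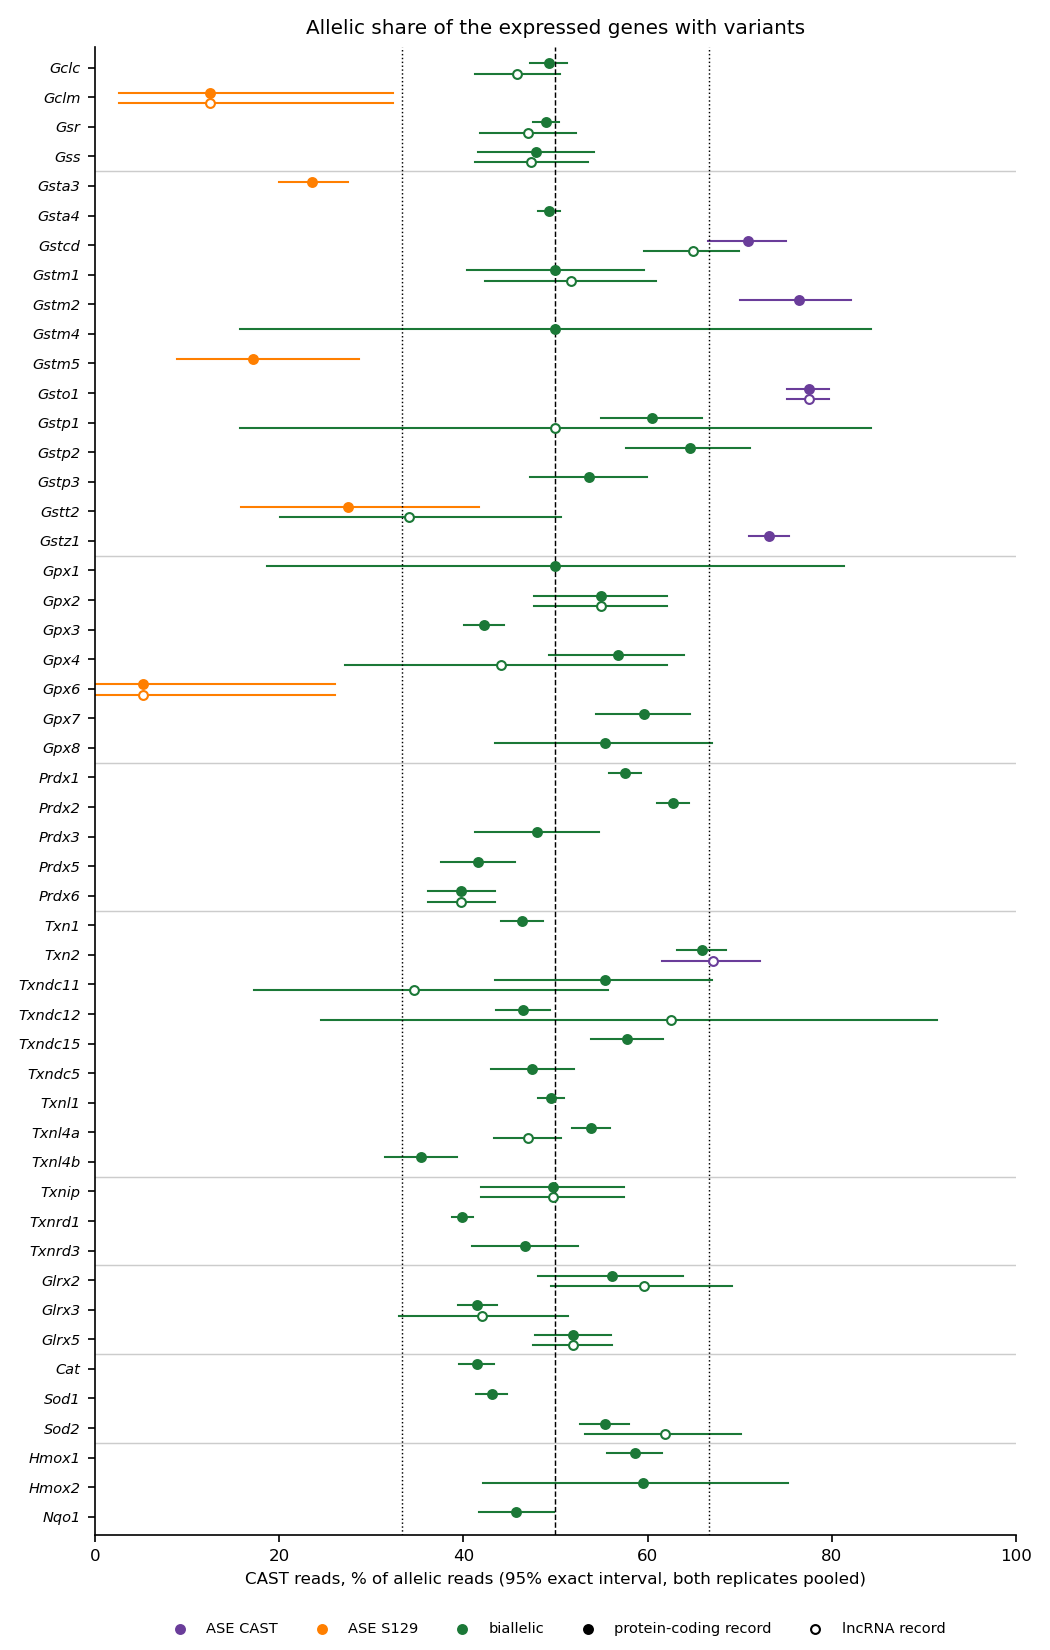
CAST reads as % of allelic reads for every tested member gene, ordered by role (grey lines separate the roles), with 95% exact intervals of the pooled reads. Dotted lines mark a 2-fold difference in either direction. The intervals of Gsto1, Gstz1 and Gstm2 lay to the right of the right dotted line, and those of Gsta3, Gstm5, Gclm and Gpx6 to the left of the left one.

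Among the enzymes that make and recycle glutathione, 1 gene was ASE. Gclm, the modifier subunit of glutamate-cysteine ligase, had 3 CAST and 21 S129 reads (log2 −2.81 ± 0.89 SE, adjusted exact p = 0.000891, binomial test) at 3.30 TPM. The CAST share was 12.5%, with an interval of 2.66 to 32.4%, and all 24 reads lay on 1 exonic variant. Gclm (chr3:122245988-122262616) also overlaps Gm17494, a noncoding gene on the other strand with 5267 CAST and 7628 S129 reads, and Gm6061, a processed pseudogene on its own strand. Of its lncRNA record, 26.3% of windows of 75 bases were also found in transcripts of other genes, with Ppia first among them, against 0.0% of its protein-coding record. Gclc, the catalytic subunit of the same enzyme, was balanced at far greater depth: it had 1209 CAST and 1246 S129 reads at 12.04 TPM (log2 −0.04 ± 0.06 SE, adjusted exact p = 0.603). Gsr, glutathione reductase, had 2395 CAST and 2497 S129 reads at 10.7 TPM (−0.06 ± 0.04 SE, adjusted exact p = 0.244). Gss, glutathione synthetase, was the lowest of the 4 protein-coding records at 2.55 TPM, with a CAST share of 47.9% of 257 reads. All 8 records of this role had fewer CAST than S129 reads, as had 7657 of the 15935 tested records of the whole table, but only the 2 Gclm records passed the adjusted p. The 8 records belong to 4 genes, and records of 1 gene can share reads, so they are not independent observations of a direction.

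The glutathione S-transferases, which join glutathione to electrophiles, held 8 of the 13 ASE records (7 of the 10 genes). 18 of their 34 records were tested, and 8 were ASE (44.4%, against 14.1% of all tested records), 5 higher in CAST and 3 in S129. By gene, 7 of 13 tested were ASE, against 1980 of 12067 tested genes over the whole table. The 8 records include both Gsto1 records, with identical reads, and Gsta3, whose reads are also those of the antisense gene Gm28836. The tested transferase records had a median of 229.5 reads and 6.5 variants, against 397.0 reads and 13.0 variants over all tested records. The transferase genes belong to several classes that arose by local duplication, so levels and allelic shares are given here class by class.

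The calls with the most reads, Gstz1 and Gsto1, were higher in CAST, as was Gstcd. Gsto1, an omega-class transferase that also reduces dehydroascorbate, had 1067 CAST and 310 S129 reads over 8 variants (log2 1.78 ± 0.09 SE, adjusted exact p = 1.28e-95), a CAST share of 77.5% with an interval of 75.2 to 79.7%. Its protein-coding and lncRNA records had the same reads, at 15.8 and 16.7 TPM, and its neighbour Gsto2 was not expressed, at 0.166 TPM. Gsto1 overlaps Cfap43 on the other strand. Gstz1 (chr12:87147718-87164723), maleylacetoacetate isomerase of tyrosine breakdown, had 1178 CAST and 431 S129 reads over 33 variants (1.45 ± 0.08 SE, adjusted exact p = 1.94e-78) at 16.3 TPM. Pomt2, which overlaps it on the other strand, had 167 CAST and 145 S129 reads. Gstcd, a gene with a transferase carboxy-terminal domain, was ASE in its protein-coding record, with 334 CAST and 137 S129 reads (1.29 ± 0.15 SE, adjusted exact p = 5.52e-19) at 2.24 TPM. Its lncRNA record had 222 CAST and 120 S129 reads (0.89 ± 0.16 SE, adjusted exact p = 1.99e-07), which is under the 2-fold minimum, so the call differed. The CAST allele was higher in both records, but the lncRNA record lies within the protein-coding record. The 2 records can share reads and are not independent. The overlapping Ints12, on the other strand, was also called for CAST, with 29 CAST and 13 S129 reads.

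The mu-class genes lie in a cluster of 149 kb on chromosome 3, and the 2 ASE genes in it went in opposite directions. Gstm2 (chr3:107981702-107986453) had 159 CAST and 49 S129 reads over 3 variants (1.70 ± 0.24 SE, adjusted exact p = 8.22e-14) at 14.0 TPM. Gstm5 (chr3:107895821-107898686), which starts 85.9 kb before Gstm2 on the chromosome, had 11 CAST and 53 S129 reads over 3 variants (−2.27 ± 0.48 SE, adjusted exact p = 5.08e-07) at 10.1 TPM. Their CAST shares were 76.4% (interval 70.1 to 82.0%) and 17.2% (8.90 to 28.7%), so the intervals did not overlap. The share of Gstm1 lay between theirs: its protein-coding record had 56 CAST and 56 S129 reads at 10.2 TPM, and its lncRNA record had 62 CAST and 58 S129 reads at 39.7 TPM. Gstm4 had 4 CAST and 4 S129 reads, a depth that allowed a CAST share of 15.7 to 84.3%. Gstm3 and Gstm6 were expressed, at 1.18 and 3.07 TPM, without a variant, and Gstm7 was below the threshold at 0.888 TPM. Of the windows of Gstm2 3.13%, and of those of Gstm5 0.0%, occurred without a mismatch in transcripts of other genes, against 20.4% for Gstm1 and 21.6% for Gstm3. Similar but not identical stretches are not counted in these shares. Whether reads of 1 mu-class gene were assigned to another was not tested. In genes within 500 kb of Gstm2 or Gstm5, 0.0% of variants carried the non-reference base on S129.

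**Figure D3:**
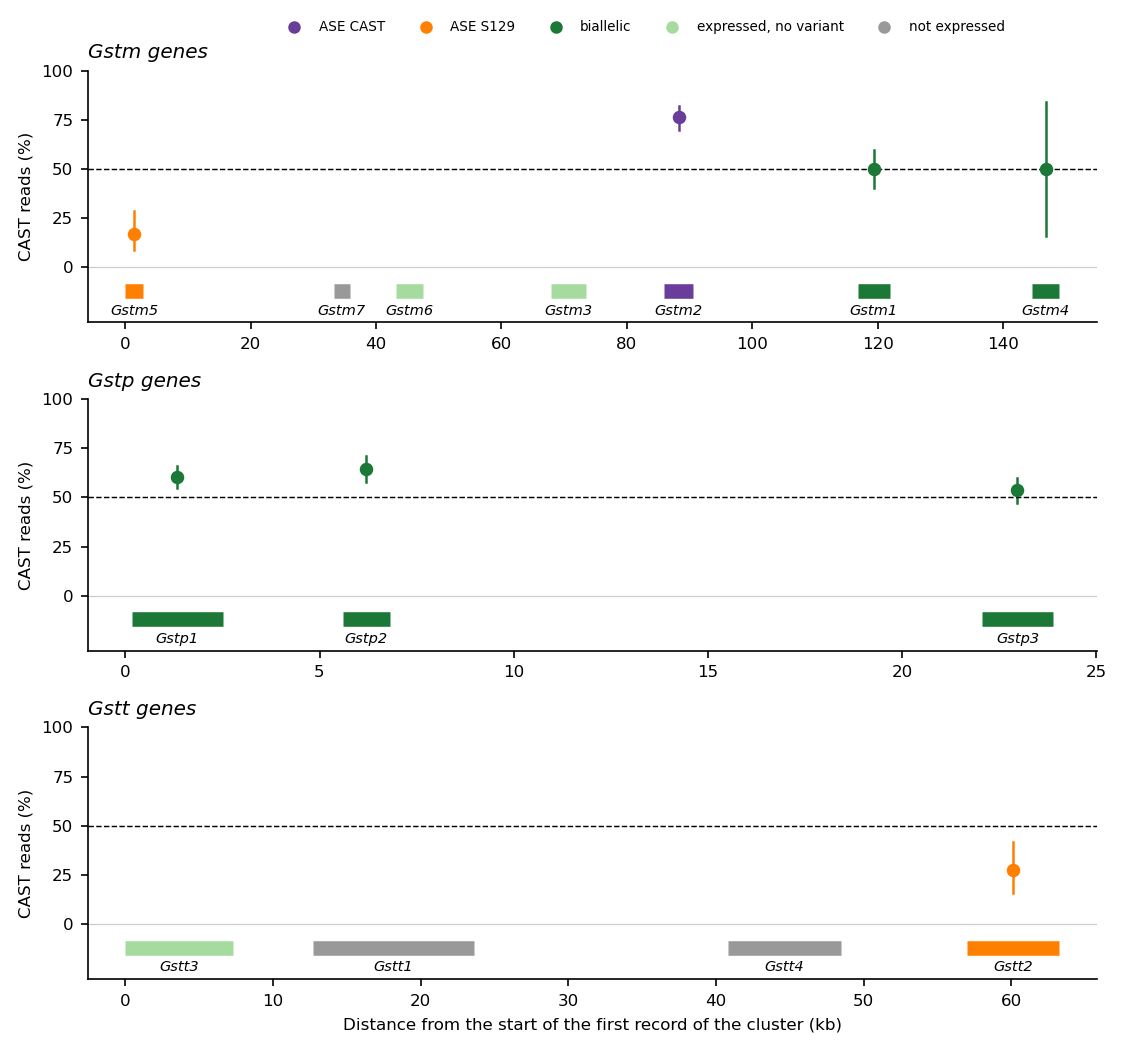
CAST reads (% of allelic reads, with 95% exact intervals) of the protein-coding records in 3 transferase clusters, against distance in kb from the start of the first record of the cluster. Bars below 0 show the extent of each gene, coloured by allelic class. In the Gstm cluster, Gstm5 lay at 17.2% and Gstm2 at 76.4%, on opposite sides of the dashed line at equal shares.

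The highest levels of the family were those of the pi-class genes Gstp1 and Gstp2. Gstp1 was at 98.4 TPM as lncRNA, with 4 CAST and 4 S129 reads (0.00 ± 1.02 SE, adjusted exact p = 1.00), and at 56.9 TPM in its protein-coding record, with 196 CAST and 128 S129 reads (0.61 ± 0.16 SE, adjusted exact p = 0.000624). Gstp2, at 52.8 TPM, had 135 CAST and 74 S129 reads (0.87 ± 0.21 SE), and Gstp3, at 13.3 TPM, had 134 CAST and 116 S129 reads (0.21 ± 0.18 SE). Gstp1 and Gstp2 are close copies: 44.5% of the windows of Gstp1 and 64.4% of those of Gstp2 were also found in transcripts of other genes, mostly of each other, so their levels are uncertain. The windows cover exons, whereas 6 of the 8 variants of Gstp1 and 11 of the 12 of Gstp2 were intronic. How far shared sequence affected their allelic reads was not tested. No window of Gstp3 was shared.

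The other tested transferases were of the alpha and theta classes. Gsta4, which detoxifies the lipid aldehyde 4-hydroxynonenal, was the deepest balanced transferase, with 3502 CAST and 3604 S129 reads at 40.6 TPM and a CAST share of 49.3% (interval 48.1 to 50.5%). Gsta1 and Gsta2, its neighbours on chromosome 9, were not expressed, at 0.00774 and 0.126 TPM. Gsta3, on chromosome 1 (chr1:21240589-21265661), was ASE, with 122 CAST and 395 S129 reads over 34 variants (−1.70 ± 0.15 SE, adjusted exact p = 2.63e-33). It was at 1.43 TPM over the transcript and 0.430 TPM over exons, and the antisense gene Gm28836, which overlaps it, had the same 122 CAST and 395 S129 reads at 1.53 TPM. Which of the 2 genes gave these reads cannot be told apart. The protein-coding record of Gstt2, at 3.90 TPM, had 14 CAST and 37 S129 reads (−1.40 ± 0.45 SE, adjusted exact p = 0.00492). Its lncRNA record had 14 CAST and 27 S129 reads at 9.08 TPM (−0.95 ± 0.48 SE, adjusted exact p = 0.114) and was not called. Gstt3 was expressed at 1.47 TPM without a variant, and Gstt1 and Gstt4 were below 1 TPM. Gstk1, the kappa-class enzyme, missed the expression threshold at 0.992 TPM, with 12 CAST and 14 S129 reads over 2 variants. Over exons this protein-coding record was at 1.21 TPM, so its class depended on the measure.

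The glutathione peroxidases spanned the widest range of levels, which are given here by the catalytic codon shown above. The protein-coding records of the 4 genes with a TGA codon were at 778.7 (Gpx1), 262.5 (Gpx4), 44.8 (Gpx3) and 14.1 TPM (Gpx2). Those of the 4 genes with a cysteine codon were at 6.90 (Gpx7), 5.41 (Gpx8), 1.01 (Gpx6) and 0 TPM (Gpx5), so the sets did not overlap. This is a description of 8 genes, without a test. Gpx1, the abundant cytosolic enzyme, had only 1 variant, and its 5 CAST and 5 S129 reads (0.00 ± 0.91 SE, adjusted exact p = 1.00) allowed a CAST share of 18.7 to 81.3%. A 2-fold difference of the member with the highest TPM was therefore not detectable at this depth. Gpx4, which reduces lipid hydroperoxides in membranes, had 105 CAST and 80 S129 reads in the protein-coding form, and in the lncRNA record, at 450.0 TPM, 15 CAST and 19 S129 reads (−0.34 ± 0.50 SE, adjusted exact p = 0.733). 55.3% of the windows of Gpx4 also occurred in other genes, mostly in Gpx4-ps2. Gpx3, the secreted form, had 889 CAST and 1216 S129 reads (−0.45 ± 0.06 SE, adjusted exact p = 8.27e-12), a difference below 2-fold, and Gpx7, of the endoplasmic reticulum, had 221 CAST and 150 S129 reads (0.56 ± 0.15 SE, adjusted exact p = 0.000866). Gpx6, the family's only ASE gene, had 1 CAST and 18 S129 reads in both records (−4.17 ± 1.48 SE, adjusted exact p = 0.000269), at 1.01 TPM in the protein-coding and 2.64 TPM in the lncRNA record. The CAST share of 5.26% had an interval of 0.133 to 26.0%. Both of its variants had the non-reference base on S129, as had 14.4% of the variants of its neighbouring genes, against 11.1% over the whole table, and the part of this in the result was not tested. In the other genes called for S129, this share of their own variants was 0.0% (Gclm, Gsta3 and Gstm5) and 33.3% (Gstt2). In the records called for CAST it ranged from 0.0% (Gstm2 and Txn2) to 52.2% (Gstcd). The part of the reference base in these calls was not tested either.

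No peroxiredoxin was ASE, although 5 of the 6 tested records passed the adjusted p (83.3%, against 48.3% of all tested records). The 6 records had a median of 714 reads, against 397 over all tested records. At a correlation of 0.01, 0 of the 6 passed, against 14.3% of all tested records. Prdx1, the abundant cytosolic peroxiredoxin, was at 109.0 TPM with 1800 CAST and 1329 S129 reads (0.44 ± 0.05 SE, adjusted exact p = 3.82e-16). Prdx2, its close relative, was at 107.4 TPM with 1908 CAST and 1131 S129 reads (0.75 ± 0.05 SE, adjusted exact p = 4.62e-44). The other peroxiredoxins had more S129 reads: Prdx5 had 248 CAST and 349 S129 reads (−0.49 ± 0.12 SE, adjusted exact p = 0.000151). Prdx6, which lacks the second catalytic cysteine of the others, had 284 CAST and 430 S129 reads in both records (−0.60 ± 0.11 SE, adjusted exact p = 2.70e-07). Prdx3, the mitochondrial form, had 106 CAST and 115 S129 reads (adjusted exact p = 0.717) and did not pass. Of the windows of Prdx1, 21.6% were also found in transcripts of other genes, against 6.03% of those of Prdx2.

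Of the 14 thioredoxin and thioredoxin-like genes, 12 were expressed and 9 were tested in 13 records. The single call was the lncRNA record of Txn2, the mitochondrial thioredoxin, which had 212 CAST and 104 S129 reads (1.03 ± 0.17 SE, adjusted exact p = 7.41e-09) at 103.4 TPM. Its protein-coding record had 798 CAST and 413 S129 reads (0.95 ± 0.09 SE, adjusted exact p = 1.47e-27) at 11.5 TPM and missed the 2-fold minimum. The CAST shares were 67.1% (interval 61.6 to 72.2%) and 65.9% (63.1 to 68.6%), so the records differed in the call while their intervals overlapped. The records overlap on the chromosome and can share reads, so their similar shares are not 2 independent observations. The lncRNA record spans 654 bases and the protein-coding record 13759 bases, and TPM is scaled by length. Whether the noncoding RNA was the more abundant was not tested. Txn1, the cytosolic thioredoxin, was at 28.2 TPM with 846 CAST and 979 S129 reads (−0.21 ± 0.07 SE, adjusted exact p = 0.00547), all on 73 intronic variants. Txndc17, a thioredoxin-related protein, was the highest protein-coding record of the role at 85.2 TPM but had no variant, as had Txndc9 at 27.6 TPM. Txnl4b had 211 CAST and 386 S129 reads (−0.87 ± 0.12 SE, adjusted exact p = 5.70e-12), the furthest toward S129 in the role among the records that passed, whereas the spliceosome protein Txnl4a had 1252 CAST and 1074 S129 reads (0.22 ± 0.06 SE, adjusted exact p = 0.000786) as protein-coding record. The lncRNA record of Txnl4a did not pass, with 356 CAST and 402 S129 reads (−0.18 ± 0.11 SE, adjusted exact p = 0.178), and 66.1% of the windows of its protein-coding record were also found in Gm16286. Txnl1 was balanced, with 2493 CAST and 2543 S129 reads.

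The thioredoxin reductases and Txnip, the inhibitor that binds thioredoxin, had no ASE record, and at a correlation of 0.01 0 of their 4 tested records passed the adjusted p. Txnip was at 262.5 TPM in the lncRNA and 208.8 TPM in the protein-coding record, both with 84 CAST and 85 S129 reads on 1 variant (−0.02 ± 0.22 SE, adjusted exact p = 1.00). Over exons the order was the reverse, at 100.9 TPM in the lncRNA and 253.4 TPM in the protein-coding record. Which of the 2 records was higher therefore depended on the measure. Txnrd1, the cytosolic reductase, was the most deeply covered member, with 3113 CAST and 4689 S129 reads over 156 variants at 21.8 TPM. Its log2 fold change of −0.59 ± 0.03 SE (adjusted exact p = 6.10e-70) gave a CAST share of 39.9% with an interval of 38.8 to 41.0%. Txnrd3 had 141 CAST and 161 S129 reads and did not pass (adjusted exact p = 0.398).

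None of the glutaredoxins was called, and at a correlation of 0.01 0 of their 6 tested records passed the adjusted p. Glrx3, which carries iron-sulfur clusters, was at 30.5 TPM as lncRNA, with 50 CAST and 69 S129 reads (−0.46 ± 0.27 SE, adjusted exact p = 0.173), and at 29.0 TPM in its protein-coding record, with 858 CAST and 1208 S129 reads (−0.49 ± 0.06 SE, adjusted exact p = 1.22e-13). The mitochondrial Glrx5 and Glrx2 did not pass, with 301 CAST and 279 S129 reads in Glrx5 and 92 CAST and 72 S129 reads in Glrx2 (protein-coding records). Glrx itself was expressed at 4.79 TPM without a variant.

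All 4 records of the superoxide dismutases and catalase passed the adjusted p, against 48.3% of all tested records, and none reached 2-fold. The 4 records had a median of 2003 reads, against 397 over all tested records. At a correlation of 0.01, 0 of the 4 passed, against 14.3% of all tested records. Sod1, the cytosolic dismutase, was at 124.2 TPM with 1403 CAST and 1855 S129 reads (−0.40 ± 0.05 SE, adjusted exact p = 2.26e-14). Sod2, the mitochondrial dismutase, went the other way: its protein-coding record had 752 CAST and 607 S129 reads at 43.3 TPM (0.31 ± 0.08 SE, adjusted exact p = 0.000323), and its lncRNA record had 83 CAST and 51 S129 reads at 46.3 TPM (0.70 ± 0.26 SE, adjusted exact p = 0.0175). Catalase, at 7.43 TPM, had 1097 CAST and 1550 S129 reads (−0.50 ± 0.06 SE, adjusted exact p = 1.39e-17). Hmox1, the inducible heme oxygenase, had 613 CAST and 433 S129 reads at 17.4 TPM (0.50 ± 0.09 SE, adjusted exact p = 1.55e-07). Hmox2, the constitutive form, had 22 CAST and 15 S129 reads at 4.90 TPM (0.55 ± 0.48 SE, adjusted exact p = 0.453), and the quinone reductase Nqo1 had 275 CAST and 326 S129 reads at 3.99 TPM (adjusted exact p = 0.0826). At a correlation of 0.01, 0 of these 3 records passed.

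**Figure D4:**
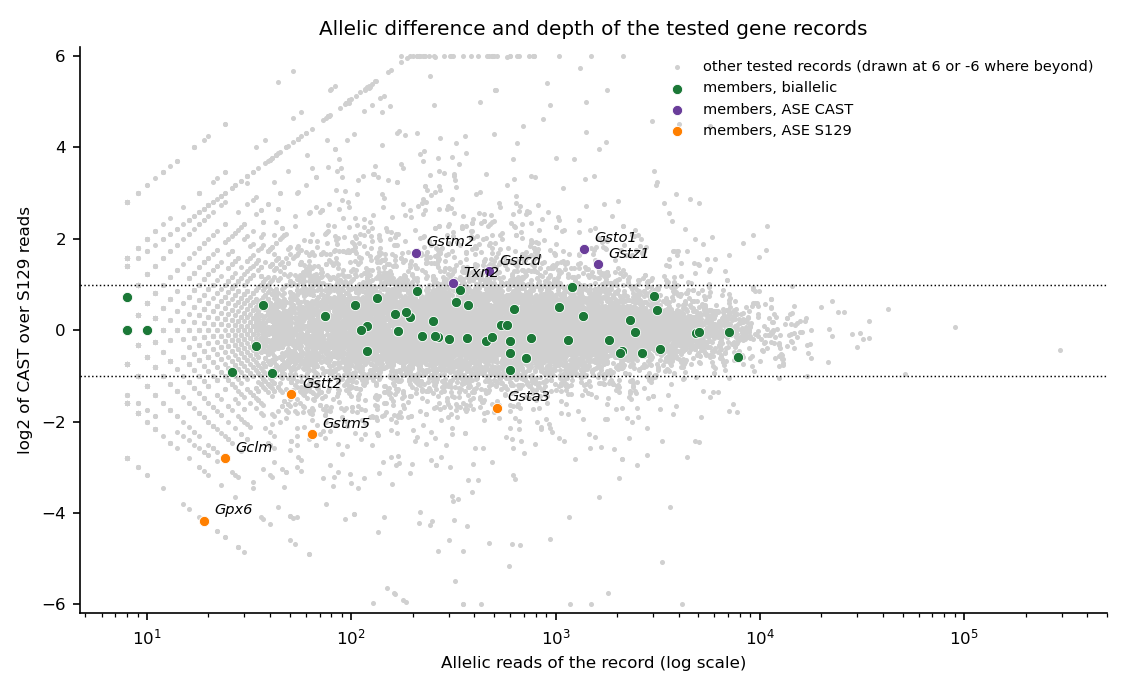
Log2 of CAST over S129 reads against allelic reads (log scale) for the 72 tested member records and all other tested records (grey, drawn at the edge where beyond it). The dotted lines mark 2-fold. Gclm and Gpx6 were called at 24 and 19 reads, whereas Gsto1 and Gstz1 were called at 1377 and 1609 reads.

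The calls differed in depth. Of the 12 tested member records with under 50 reads, 4 were ASE (33.3%), against 19.0% of all tested records of that depth. Of the 15 with 50 to under 200 reads, 2 were ASE (13.3%), against 21.6%. Of the 56 with at least 100 reads, 7 were ASE (12.5%), against 11.9%. Of the 30 with at least 500 reads, 4 were ASE (13.3%), against 8.83% of all tested records of that depth, and these were Gsta3, Gstz1 and both records of Gsto1. A further 23 member records passed the adjusted p of the binomial test below 2-fold, and 10 of them lay above 1.5-fold: Txn2 (protein-coding), Gstcd (lncRNA), Gstp2, Prdx2, Sod2 (lncRNA) and Gstp1 (protein-coding) toward CAST, and Txnl4b, both records of Prdx6 and Txnrd1 toward S129. Of the 22 genes with a pair of tested records, 6 had identical reads in both and 3 had calls that differed (Gstcd, Gstt2 and Txn2).

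Promoter sequence was examined, since many of these genes are known Nrf2 targets. The core of the antioxidant response element, TGACNNNGC, was searched on both strands of 300-base RefSeq promoters (GRCm38.p6, 250 bases before to 50 after the start). It occurred in 12.4% of 32851 promoters and in 11.9% of 84 member promoters, or in 16.7% of the 60 matched member genes and 14.0% of all genes. The 10 member genes with a match were Gclm, Gsta3, Gstm5, Gstm7, Prdx1, Sod1, Txndc11, Txndc2, Txndc5 and Txnrd1. Of the ASE genes, a match was found in Gclm, Gsta3 and Gstm5. Gclm was called on 24 reads at 1 variant, and Gsta3 had its reads in common with Gm28836. Any link between a match and the allelic difference was not tested. The 3 promoters are shown, in the orientation of the gene, because they belong to ASE genes, with the match in capitals (on the reverse strand in Gclm). The sequence is that of the reference genome and not of the CAST or S129 allele.
Gclm promoter: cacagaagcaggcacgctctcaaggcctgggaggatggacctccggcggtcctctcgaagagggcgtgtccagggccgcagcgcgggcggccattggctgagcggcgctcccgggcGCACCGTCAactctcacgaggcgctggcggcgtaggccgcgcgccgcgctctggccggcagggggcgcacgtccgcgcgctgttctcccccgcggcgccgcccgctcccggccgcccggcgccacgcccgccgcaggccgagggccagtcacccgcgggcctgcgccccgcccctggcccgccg
Gsta3 promoter: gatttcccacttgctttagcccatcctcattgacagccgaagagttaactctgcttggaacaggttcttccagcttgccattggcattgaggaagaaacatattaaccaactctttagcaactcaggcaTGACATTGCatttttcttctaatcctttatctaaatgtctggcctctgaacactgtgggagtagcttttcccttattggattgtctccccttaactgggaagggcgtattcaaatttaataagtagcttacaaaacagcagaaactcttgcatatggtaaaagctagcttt
Gstm5 promoter: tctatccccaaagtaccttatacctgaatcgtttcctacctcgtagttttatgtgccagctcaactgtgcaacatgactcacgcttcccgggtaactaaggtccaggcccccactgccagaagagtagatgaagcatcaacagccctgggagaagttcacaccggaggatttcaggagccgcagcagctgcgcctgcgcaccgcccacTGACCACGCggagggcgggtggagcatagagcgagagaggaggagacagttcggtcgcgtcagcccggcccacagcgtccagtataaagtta
These windows lie at chr3:122245307-122245606, chr1:21240335-21240634 and chr3:107895604-107895903, all on the plus strand. The Gclm record in the table starts downstream of its window. A match is a string of letters and not evidence of binding.

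The other genes of the pathway were counted in the same way. A list of 54 other genes of glutathione supply, NADPH supply, iron storage, selenoprotein synthesis and the Nrf2 switch had 53 genes in the table and 64 tested records, of which 6 were ASE (9.38%, against 14.1% of all tested records), 4 higher in CAST and 2 in S129. In all, 35 records (54.7%, against 48.3% of all tested records) passed the adjusted p without the fold minimum, 15 toward CAST and 20 toward S129. Keap1, the repressor of Nrf2, had 132 CAST and 335 S129 reads (−1.34 ± 0.15 SE, adjusted exact p = 2.52e-20) at 9.67 TPM. Nrf2 itself (Nfe2l2, protein-coding) had 1474 CAST and 1143 S129 reads (0.37 ± 0.06 SE, adjusted exact p = 6.96e-10). Chac1, which breaks glutathione down, had 75 CAST and 0 S129 reads (adjusted exact p = 7.00e-22), so that its log2 fold change was at least 4.64 with a floor of 3 reads in the pooled sample. In its neighbouring genes, 36.4% of variants carried the non-reference base on S129. Slc1a5, a glutamine carrier, had 1459 CAST and 569 S129 reads as protein-coding record (1.36 ± 0.07 SE, adjusted exact p = 6.69e-88) and 374 CAST and 155 S129 reads as lncRNA (1.27 ± 0.14 SE, adjusted exact p = 8.29e-21). The corresponding share of neighbouring variants was 37.9%. Mafk, a small Maf partner of Nrf2, was called only as lncRNA, with 79 CAST and 39 S129 reads (1.02 ± 0.28 SE, adjusted exact p = 0.000938). Glo1, which clears methylglyoxal with glutathione, had 10 CAST and 34 S129 reads (−1.77 ± 0.52 SE, adjusted exact p = 0.00122).

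The highest levels of the list were those of the ferritin subunits and of selenium supply. Ftl1, ferritin light chain, was at 521.9 TPM as lncRNA, with 5033 CAST and 7449 S129 reads (−0.57 ± 0.03 SE), and at 411.1 TPM as protein-coding record, with 5051 CAST and 7879 S129 reads (−0.64 ± 0.03 SE). Fth1, ferritin heavy chain, was at 297.0 TPM with 76 CAST and 66 S129 reads (0.20 ± 0.24 SE, adjusted exact p = 0.586). Sephs2, which makes the selenium donor for selenocysteine, was at 105.4 TPM with 416 CAST and 642 S129 reads (−0.63 ± 0.09 SE, adjusted exact p = 2.81e-11). Taldo1, transaldolase, was at 70.3 TPM as lncRNA, with 892 CAST and 999 S129 reads (−0.16 ± 0.07 SE, adjusted exact p = 0.0331). Slc7a11, the cystine carrier that is a classic Nrf2 target, was below the expression threshold, at 0.0125 TPM in its protein-coding and 0.392 TPM in its lncRNA record.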

How the data were processed

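Total RNA of F123 mESCs (2 replicates, stranded kit, paired-end reads) was aligned by the authors to mm10 (GRCm38.p6) with STAR (version 2.7.2c) and the F123 variants, and duplicates were removed with Picard. For the deposited allelic counts the authors ran GATK ASEReadCounter over exonic and intronic variants and summed each gene and both replicates. The paper states that only variants in regions of high mappability were kept. Whether strand was used in counting is not given in the sources used here. For the deposited TPM values the authors scaled HTSeq counts by length and library size, for 1 transcript per gene and biotype. The table also holds the authors' own p-values, log2 fold changes, CAST fraction and ASE class, which were not used. The table holds 0 other columns of per-sample values.

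Members were taken by gene name, and the members, roles and gene lists were chosen with earlier results of these data known. CAST against S129 counts were tested here by two-sided exact binomial tests with Benjamini-Hochberg adjustment over all 18632 records with allelic reads (Python 3.11.15, scipy 1.17.1, pandas 2.3.3), without added reads. SEs of log2 ratios follow from the counts. The smallest records held 8 reads, and the tested member records had a median of 333 reads. Clopper-Pearson intervals (95%) cover counting error of independent reads only, and a read can be counted at several variants. The procedure was tested on simulated data. Full values are given for every ASE member record, the 2 records with the highest TPM of each role, records of a gene with calls that differ, and, of the pathway list, the ASE genes and the 5 records with the highest TPM. Other members were named to account for all of them. Shared windows are runs of 75 bases of the spliced transcript that also occur, without a mismatch, in GENCODE M21 transcripts of another gene. They do not cover introns, so they do not describe reads at intronic variants, and similar but not identical stretches count as unshared. Neighbouring variants are those of genes within 500 kb that do not overlap the record and have at least 10 variants. Alternatives varied the depth, variants, TPM, fold, adjustment, null share and spread.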

Additional observations from a re-analysis of the deposited data

How the results depend on the processing

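No paired analysis was possible because the deposited table gives 1 pooled value for both replicates, and for the same reason no replicate was left out. With 13 ASE member records as reported, the number was 7 at a minimum of 100 allelic reads, 8 at a minimum of 3 variants, 6 at a TPM of at least 5, 8 with Bonferroni adjustment, 23 with a 1.5-fold minimum and 4 where at most 2% of neighbouring variants had the non-reference base on S129, a setting that left 27 records to test. With a beta-binomial test and an intra-gene correlation of 0.05 in place of the binomial it was 0, and with a correlation of 0.01 it was 12. Of the 72 records, 36 passed an adjusted p of 0.05 in the binomial test without the fold minimum. The pathway list, with 6 ASE records, had 1 at the correlation of 0.05, 18 with a 1.5-fold minimum, 2 with a 3-fold minimum and 1 under the limit on neighbouring variants. The median TPM of 11.7 became 6.83 with no minimum and 19.6 at a minimum of 5. The direction of a record could not reverse under any alternative. Each used the same pooled CAST and S129 reads, or added equally to both, so directions were not tested. Under an exonic TPM of at least 1 and with 1 record per distinct set of reads, both chosen after seeing the data, 11 and 10 member records were ASE, and Gsta3 and the Gclm lncRNA record lost the call under the exonic TPM. Of the alternatives in which they could be tested, Gstm2, Gstm5 and Gsto1 lost it only under the correlation of 0.05, Gstz1 and the Txn2 lncRNA record also with a 3-fold minimum, and Gstcd also with a 3-fold minimum and a TPM of at least 5. Gclm and Gpx6 lost it also under Bonferroni adjustment and a TPM of at least 5, and Gstt2 also under the correlation of 0.01, Bonferroni adjustment, a 3-fold minimum and a TPM of at least 5. The spread between replicates is unknown, and depth limits Gpx1, Gstm4 and the Gstp1 lncRNA record, with 10, 8 and 8 reads.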
